A study of Homo sapiens with 6 samples.

Results

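SPARC and 9 other genes of matricellular or adhesive matrix proteins were followed in U-87 glioma cells: SPARC, TNC, THBS1, THBS2, POSTN, SPP1, CCN1, CCN2, FN1 and TGFBI. The 10 were listed by name and are 10 of the 18417 genes that the arrays measured with a probe set of a single gene symbol, and each of them had 1 such probe set. U-87, labelled as brain tissue, is a long-used line of human glioblastoma cells. Total RNA was hybridised to 6 Affymetrix arrays, 3 labelled P68 knockdown (P68 KD) and 3 labelled P68 wild type (P68 WT), numbered 1 to 3 in each group. P68 is the RNA helicase encoded by DDX5, and the study's title connects it with growth, invasion and the phosphatase DUSP5. Both groups are U-87 cells in serum-containing medium, and the treatment note names an siRNA against P68 or a reagent called NC, without saying that NC was given to the wild-type cells. The time after transfection is not given in the sources used here.

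Matricellular proteins are secreted into the matrix or pericellular space, where they bind collagens, growth factors, proteases and cell surface receptors and alter adhesion and migration more than they add mechanical strength. Tissues make much of them during development, wound repair and tumour growth, and in glioma SPARC, tenascin C and osteopontin are known from other work in connection with invasion. Fibronectin, encoded by FN1, is a structural adhesive glycoprotein that many of them bind. Many act through integrins, and CCN1, CCN2 and THBS1 are well known as genes that respond to the YAP and TEAD transcription factors.

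Signals are log2 values made with RMA, so a difference of 1 is a doubling, and RMA's equalising of the arrays would hide a change common to most genes. DDX5, the targeted gene, gave 9.47, 9.79 and 9.91 in P68 KD arrays 1, 2 and 3, against 10.09, 10.25 and 10.30 in P68 WT arrays 1, 2 and 3, a log2 difference of -0.49 ± 0.13 (SE; adjusted p = 0.902, limma). That is a signal of 71.2% relative to P68 WT (unadjusted p = 0.0034, limma). Every knockdown array was dimmer than every wild-type array, and the groups did not overlap for 10.1% of all genes. The labels do not say that the arrays came from separate cultures, so the spread behind the p-values may be technical only. Of the 6 glioma markers checked, VIM (7.25 to 7.94), NES (5.61 to 5.96) and GFAP (5.25 to 5.79) were outside the dimmest 40% of genes by mean signal. CD44 (3.48 to 3.80), SOX2 (3.51 to 4.0) and S100B (3.05 to 3.34) were among that 40%, although CD44 is a surface receptor usually abundant in U-87. MTAP and CDKN2A are known from other work to be deleted in U-87. MTAP gave 4.61 to 4.86, and CDKN2A gave 3.58 to 4.12 and was among the dimmest 40%. FN1, THBS1 and SPARC, whose transcripts are usually abundant in this line, gave no more than 4.93, 4.66 and 6.25 on any array. Whether these values reflect background signal, the deposited table or the identity of the cells was not tested. Of the 10 matricellular genes, TNC, POSTN and SPP1 were among the dimmest 40%.

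The promoters of 9 of the 10 genes were found in RefSeq (GRCh38.p14). That of CCN1 was not among the promoters used, so it was not searched. Those of SPARC, THBS1, THBS2 and CCN2 are shown because they hold the core letters of the TEAD site. Their genes differed in how they varied over the arrays. Each sequence is the 250 bases before the annotated start, on the strand of the gene, with the motif GGAATG, read on either strand, in capitals. SPARC is at chr5:151686916-151687165 on the minus strand, THBS1 at chr15:39580829-39581078 on the plus strand, THBS2 at chr6:169253847-169254096 on the minus strand and CCN2 at chr6:131951373-131951622 on the minus strand.
SPARC: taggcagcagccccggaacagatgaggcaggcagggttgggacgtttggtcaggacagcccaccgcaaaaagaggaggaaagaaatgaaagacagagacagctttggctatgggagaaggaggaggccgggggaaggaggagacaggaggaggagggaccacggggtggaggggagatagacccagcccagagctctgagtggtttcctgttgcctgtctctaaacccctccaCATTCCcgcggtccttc
THBS1: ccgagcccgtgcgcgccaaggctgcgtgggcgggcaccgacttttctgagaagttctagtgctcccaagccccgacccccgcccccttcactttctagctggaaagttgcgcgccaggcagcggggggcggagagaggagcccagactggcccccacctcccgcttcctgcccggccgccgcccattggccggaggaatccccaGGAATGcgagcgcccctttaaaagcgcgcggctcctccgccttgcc
THBS2: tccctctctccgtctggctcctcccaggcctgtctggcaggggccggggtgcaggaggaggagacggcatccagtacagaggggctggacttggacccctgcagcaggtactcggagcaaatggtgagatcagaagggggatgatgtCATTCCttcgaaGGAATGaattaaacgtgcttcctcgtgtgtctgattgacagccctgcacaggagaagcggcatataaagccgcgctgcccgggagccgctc
CCN2: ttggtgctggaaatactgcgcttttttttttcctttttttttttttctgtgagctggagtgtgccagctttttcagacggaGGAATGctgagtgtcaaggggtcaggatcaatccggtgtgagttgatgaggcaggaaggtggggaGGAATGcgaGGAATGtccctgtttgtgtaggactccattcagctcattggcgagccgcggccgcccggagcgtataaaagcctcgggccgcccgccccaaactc
CCN2 holds the motif 3 times, THBS2 2 times, once on each strand, and SPARC and THBS1 once each. The letters occur in 4 of the 9 promoters and in 11.9% of the 35116 promoters of the same length. TATAAA occurs in 3 of the 9, those of THBS2, POSTN and CCN2, and in 10.7% of all. In each of these 3 promoters a copy of TATAAA lies between 29 and 32 bases before the start. GGGCGG occurs in 5 of the 9, those of TNC, THBS1, CCN2, FN1 and TGFBI, and in 42.6% of all. TGANTCA, the site of AP-1 factors, occurs only in that of POSTN among the 9, and in 6.57% of all. Both strands were searched for each motif, and no base of the 9 promoters was part of matches to more than 1 of the 4 motifs, although copies of GGGCGG overlap each other in CCN2 and FN1. A match describes the letters and not a bound site.

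Between P68 KD and P68 WT, 0 of the 10 genes passed an adjusted p of 0.05 in limma, where 0% of all 18417 genes passed. At an unadjusted p under 0.05, 1 of the 10 differed, SPP1, where 5.09% of all genes did. The 3 arrays of one group did not overlap with the 3 of the other for 2 of the 10, SPP1 and FN1, where the same held for 10.1% of all genes. The differences lay above 0 for 5 genes and below 0 for 5, with a median of -0.04, beside a median of 0.01 over all genes. In RNA from whole cultures, fewer cells that express a gene and less RNA per cell cannot be told apart.

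SPARC binds collagen and calcium and loosens cell adhesion. It gave 5.45, 4.96 and 4.86 in P68 KD arrays 1, 2 and 3, against 6.25, 5.41 and 5.0 in P68 WT arrays 1, 2 and 3. Array 1 was the brightest of each group, and the groups overlapped. The difference was the largest of the 10, at -0.46 ± 0.27 (SE), with a 95% confidence interval of -1.07 to 0.14 and an adjusted p of 0.902 (limma). It was -0.12 without P68 WT replicate 1, -0.74 without P68 WT replicate 3 and -0.30 without both arrays numbered 1, a setting chosen after the data were seen. Between arrays of the same number the difference was -0.80, -0.45 and -0.14 for numbers 1, 2 and 3.

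**Figure D1:**
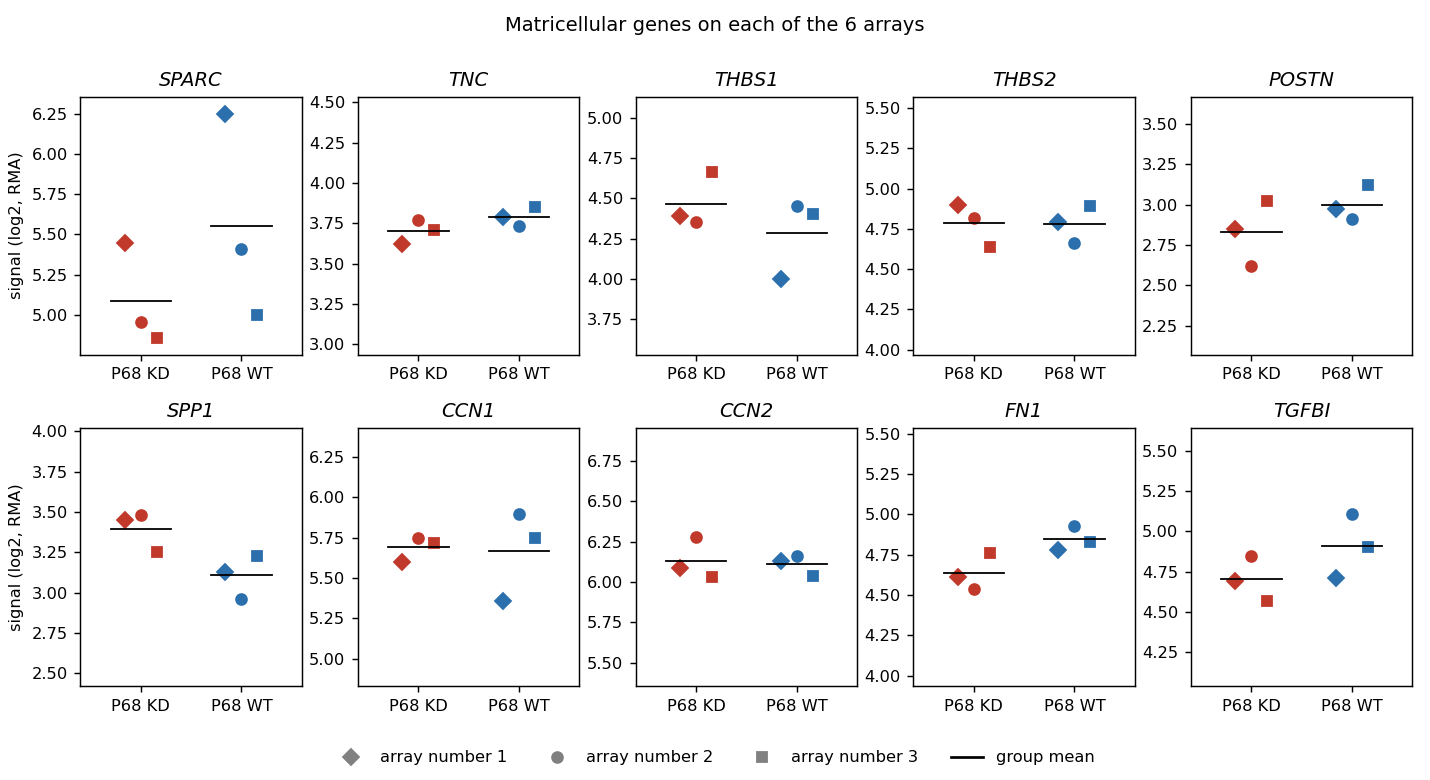
Log2 signal of each of the 10 genes on the 3 P68 KD arrays (red, left) and the 3 P68 WT arrays (blue, right). Symbols give the array number, black lines the group means, and every panel spans the same height. SPARC spreads from 4.86 to 6.25 with array 1 on top in both groups, and only SPP1 and FN1 have groups that do not overlap.

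SPP1 encodes osteopontin, a phosphoprotein ligand of integrins and CD44. It gave 3.45, 3.48 and 3.25 in P68 KD arrays 1, 2 and 3, against 3.13, 2.96 and 3.23 in P68 WT arrays 1, 2 and 3. Every knockdown array was brighter than every wild-type array, with a gap of only 3.25 to 3.23 between the nearest pair. The difference was 0.29 ± 0.11 (SE), a signal of 122% relative to P68 WT (95% confidence interval, 102% to 145%). Its unadjusted p was 0.0298 and its adjusted p 0.902 (limma), and the exact permutation test (two-sided) gave p = 0.1, the smallest that 3 arrays against 3 allow. With single arrays left out the difference ran from 0.21 to 0.36. Osteopontin is also made by macrophages, and the mean signal of 7 macrophage and microglia markers ran from 4.0 to 4.16 in P68 KD and from 3.94 to 4.0 in P68 WT. CD68 differed most of these 7, with 5.22, 5.29 and 4.70 in P68 KD and 4.67, 4.46 and 4.58 in P68 WT (arrays 1, 2 and 3 of each), a difference of 0.50 ± 0.15 (SE; adjusted p = 0.902, limma). Between P68 KD and P68 WT, 4 of the 7 lay above 0 and 3 below, PTPRC at -0.16 among the 3. The groups did not overlap for 2 of the 7, where the same held for 10.1% of all genes. Of the 7, 4 were among the dimmest 40% of genes, including PTPRC at 2.49 to 2.91. The labels name U-87 cells and no macrophages, and a link of these signals to the SPP1 value was not tested.

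FN1 gave 4.61, 4.54 and 4.76 in P68 KD arrays 1, 2 and 3, against 4.78, 4.93 and 4.83 in P68 WT arrays 1, 2 and 3. Every knockdown array was dimmer than every wild-type array, the nearest pair being 4.76 and 4.78. The difference was -0.21 ± 0.10 (SE), a signal of 86.5% relative to P68 WT (95% confidence interval, 73.6% to 101.5%). Its adjusted p was 0.902 (limma), and the exact permutation test (two-sided) gave p = 0.1. TGFBI, a fasciclin-domain adhesion protein first named for its induction by TGF-beta, gave 4.69, 4.85 and 4.57 in P68 KD and 4.71, 5.11 and 4.90 in P68 WT (arrays 1, 2 and 3 of each). The groups overlapped, and the difference was -0.20 ± 0.13 (SE). It was -0.30 without P68 WT replicate 1 and -0.10 without P68 WT replicate 2. POSTN, the fasciclin-domain protein periostin, gave 2.85, 2.62 and 3.02 in P68 KD and 2.97, 2.91 and 3.12 in P68 WT (arrays 1, 2 and 3 of each). Its difference was -0.17 ± 0.12 (SE). It was -0.07 without P68 KD replicate 2, -0.11 without P68 WT replicate 3 and -0.27 without P68 KD replicate 3.

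The thrombospondins THBS1 and THBS2 bind CD47 and CD36 and restrain blood vessel growth. THBS1 gave 4.39, 4.35 and 4.66 in P68 KD and 4.0, 4.45 and 4.40 in P68 WT (arrays 1, 2 and 3 of each), a difference of 0.18 ± 0.14 (SE). P68 WT array 1 was the dimmest of the 6, and the difference was 0.04 without it and 0.09 without P68 KD replicate 3. THBS2 ran from 4.64 to 4.90 in P68 KD and from 4.66 to 4.89 in P68 WT, and its difference of 0.01 ± 0.11 (SE) was -0.01 with each array centred on its median. Tenascin C, encoded by TNC, ran from 3.62 to 3.77 in P68 KD and from 3.73 to 3.85 in P68 WT, a difference of -0.09 ± 0.10 (SE) that ran from -0.13 to -0.05 with single arrays left out, the lowest without P68 KD replicate 2 and the highest without P68 KD replicate 1.

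CCN1 and CCN2 are cysteine-rich secreted proteins that bind integrins and heparan sulfate. CCN1 gave 5.60, 5.75 and 5.72 in P68 KD arrays 1, 2 and 3, against 5.36, 5.90 and 5.75 in P68 WT arrays 1, 2 and 3. Its group means were 5.69 ± 0.08 in P68 KD and 5.67 ± 0.28 in P68 WT (SD, n = 3 each), and the difference of 0.02 ± 0.14 (SE) was -0.14 without P68 WT replicate 1 and 0.14 without P68 WT replicate 2. CCN2 ran from 6.03 to 6.28 in P68 KD and from 6.04 to 6.16 in P68 WT, a difference of 0.02 ± 0.11 (SE) with a 95% confidence interval of -0.21 to 0.26. As a share of P68 WT, the interval of SPARC ran from 47.8% to 110.1%, and those of the other 9 genes lay within 71.4% to 145%.

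**Figure D2:**
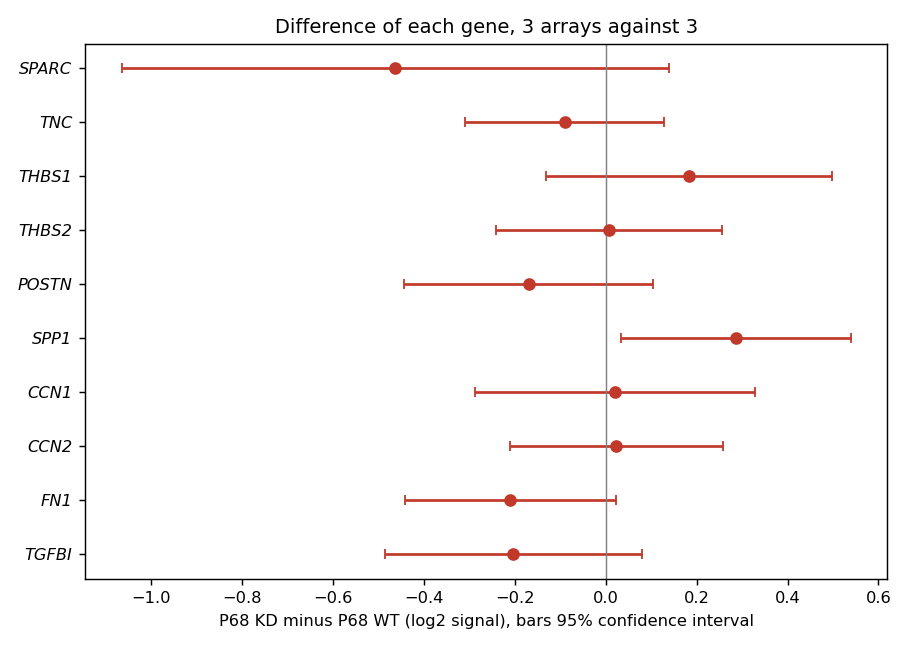
P68 KD minus P68 WT difference of log2 signal for each of the 10 genes (points) with 95% confidence intervals from limma (bars), 3 arrays against 3. The interval of SPP1, from 0.03 to 0.54, is the only one that does not hold 0, before adjustment over all genes.

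The arrays numbered 1 were set against those numbered 2 and 3, with group in the same model. The labels give only the number, and do not say that it stands for a day, culture or batch. Of all 18417 genes, 138 passed an adjusted p of 0.05 (limma), 61 higher and 77 lower on arrays numbered 1, or 0.749% of those tested. Of the 10 matricellular genes, 0 passed. That count of 138 was 0 without P68 KD replicate 1, 5 without P68 WT replicate 1, 7 without P68 KD replicate 3, 18 without P68 WT replicate 2, 20 without P68 WT replicate 3 and 110 without P68 KD replicate 2. At an unadjusted p under 0.05, 2 of the 10 differed, SPARC and CCN1, where 11.6% of all genes did. Array 1 lay beyond both other arrays, on the same side in both groups, for the same 2 of 10 and for 29.1% of all genes.

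SPARC averaged 5.85 on the 2 arrays numbered 1 and 5.06 on the other 4, a difference of 0.79 ± 0.15 (SE), or 1.73-fold, with a 95% confidence interval of 0.46 to 1.13. Its adjusted p was 0.0502 (limma), just short of the threshold, and ran from 0.0281 to 0.404 over 15 other settings, of which 6 brought it past the threshold. None of the settings that brought it past the threshold left out an array. The exact permutation test within groups (two-sided) gave p = 0.111 for SPARC, the smallest that this test allows here. In all, 47 of the 18417 genes, SPARC included, differed by 0.79 or more in size between these arrays. Array 1 was brighter than the mean of arrays 2 and 3 by 0.54 in P68 KD and by 1.05 in P68 WT, which are also the values without P68 WT replicate 1 and without P68 KD replicate 1. The difference between these effects was -0.51 ± 0.27 (SE; adjusted p = 0.919, limma), and 0% of all genes passed that test. The number 1 difference of SPARC was thus larger in size than its knockdown difference, although the 2 were not tested against each other.

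CCN1 and THBS1 had values of the opposite sign. CCN1 averaged 5.48 on the arrays numbered 1 and 5.78 on the others, a difference of -0.30 ± 0.11 (SE; adjusted p = 0.339, limma). It was -0.14 without P68 WT replicate 1 and -0.47 without P68 KD replicate 1. THBS1 averaged 4.20 on the arrays numbered 1 and 4.47 on the others, a difference of -0.27 ± 0.13 (SE; adjusted p = 0.456, limma). It was -0.12 without P68 WT replicate 1 and -0.43 without P68 KD replicate 1. The remaining 7 genes differed by -0.16 (TGFBI) to 0.09 (THBS2), with adjusted p-values of 0.704 to 0.992 (limma). SPARC, THBS1, THBS2 and CCN2, whose promoters share the motif above, had number 1 differences of 0.79, -0.27, 0.09 and -0.02. A link of the motif to these values was not tested.

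**Figure D3:**
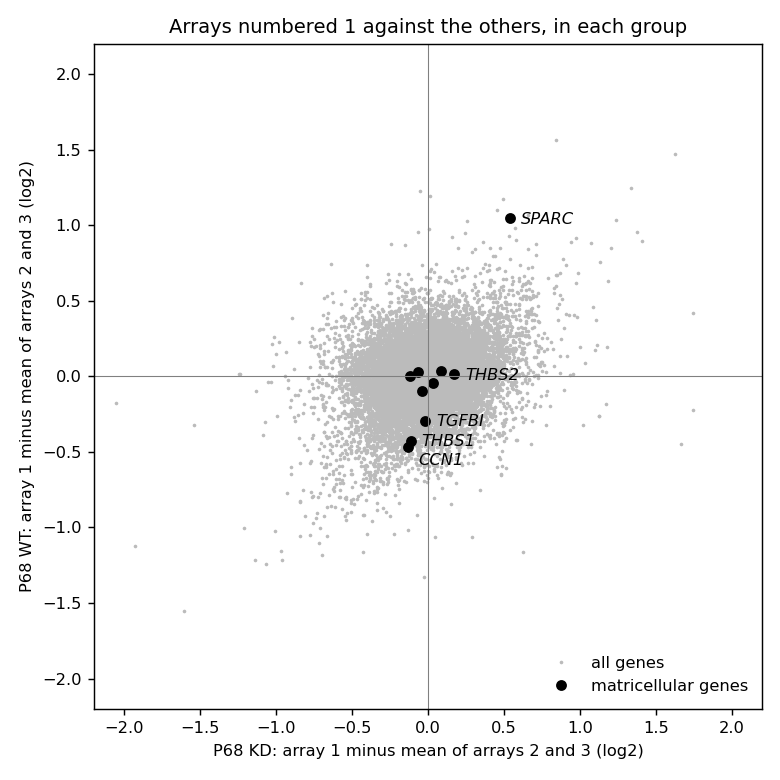
Array 1 minus the mean of arrays 2 and 3 (log2), in P68 KD (horizontal) and P68 WT (vertical), for all genes (grey; 1 gene lies outside the range) and the 10 matricellular genes (black, 5 of them named). SPARC lies at 0.54 and 1.05, CCN1 and THBS1 lie below 0 on both axes, TGFBI lies at -0.02 and -0.30, and the others are near the centre.

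The 5 genes whose pattern over the 6 arrays was most like that of SPARC, by Pearson correlation among the 9208 other genes at or above the median mean signal, were EPHA4 (r = 0.996), CLK2 (0.992), INPPL1 (0.992), KIF2C (0.984) and SLC22A23 (0.982). EPHA4 is an ephrin receptor, CLK2 a kinase of splicing factors, INPPL1 an inositol phosphatase, KIF2C a mitotic kinesin and SLC22A23 a member of a transporter family. KIF2C, the one of the 5 with the widest range, gave 5.58, 5.25 and 5.20 in P68 KD and 6.15, 5.61 and 5.44 in P68 WT (arrays 1, 2 and 3 of each). Like SPARC it was brightest on P68 WT array 1, which its choice by likeness to SPARC favours. CLK2, the one with the narrowest range, ran only from 5.30 to 5.49 over the 6 arrays, where SPARC ran from 4.86 to 6.25. With 6 arrays and so many candidates, high correlations are a description of these arrays and carry no test.

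**Figure D4:**
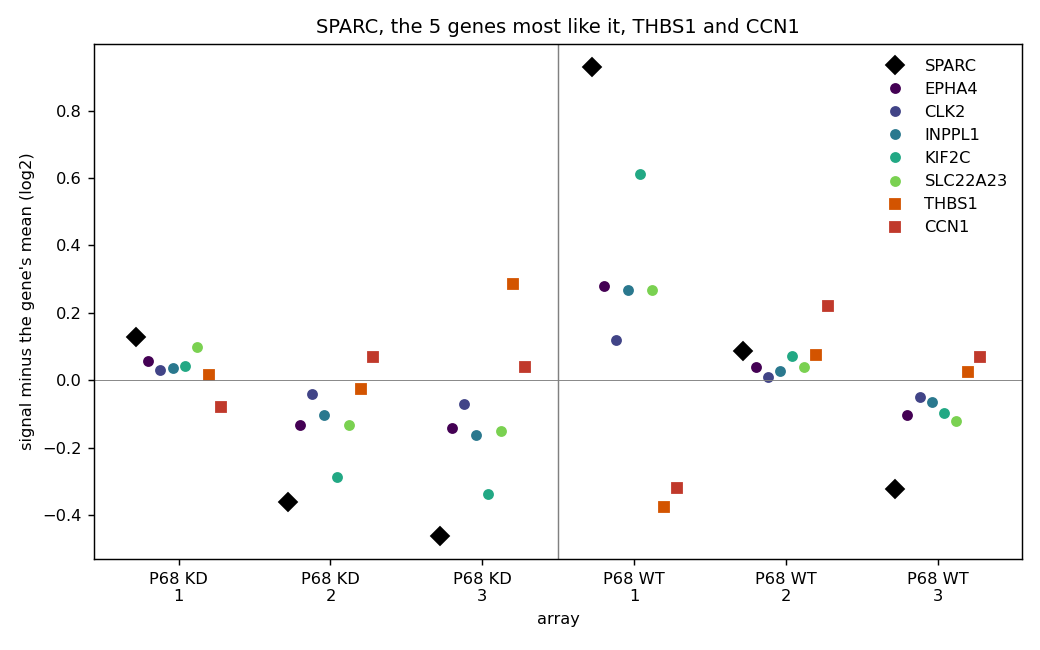
Log2 signal minus the gene's own mean over the 6 arrays, for SPARC (black), the 5 genes most like it (circles), THBS1 and CCN1 (squares), with the P68 KD arrays on the left and the P68 WT arrays on the right. SPARC and its 5 like genes, which were chosen for that likeness, peak on P68 WT array 1, where THBS1 and CCN1 are at their lowest.

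Further genes of the same field were taken from lists. Of 20 measured relatives of the matricellular families, 0 passed the threshold in either comparison, and the medians were 0.01 between P68 KD and P68 WT and 0.02 between arrays numbered 1 and the others, beside 0.01 and -0.01 over all genes. SPOCK1, a proteoglycan of the SPARC family, differed most by knockdown, at 4.56 ± 0.30 in P68 KD and 4.21 ± 0.19 in P68 WT (SD, n = 3 each). FSTL1, a secreted SPARC-family glycoprotein, differed most by array number, with 6.26 on the arrays numbered 1 and 5.63 on the others, a difference of 0.62 ± 0.13 (SE; adjusted p = 0.0683, limma). FSTL1 gave 6.35, 5.51 and 5.77 in P68 KD and 6.16, 5.79 and 5.46 in P68 WT (arrays 1, 2 and 3 of each), so that array 1 was the brightest of each group, as for SPARC.

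Of 18 measured receptors of these proteins, 0 passed in either comparison. ITGA3, the alpha chain of a laminin-binding integrin that also binds THBS1, differed most in both. It gave 5.85 ± 0.41 in P68 KD and 6.11 ± 0.27 in P68 WT (SD, n = 3 each), and 5.60 on the arrays numbered 1 against 6.17 on the others, a difference of -0.57 ± 0.12 (SE; adjusted p = 0.0625, limma). ITGB1, the beta chain shared by many of these integrins, ran from 7.04 to 7.06 in P68 KD and from 7.07 to 7.09 in P68 WT, a difference of -0.03. The groups did not overlap for 2 of the 18 receptors, where the same held for 10.1% of all genes. Of 21 collagens and other matrix partners, 0 passed between P68 KD and P68 WT, with a median of 0.06 beside 0.01 over all genes. Above 0 lay 18 of the 21, and the share of all genes above 0 was not computed. The groups did not overlap for 4 of the 21, against 10.1% of all genes. LOX, the collagen and elastin crosslinking enzyme, differed most at -0.30 ± 0.17 (SE).

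Among 20 further YAP and TAZ targets, 0 passed between P68 KD and P68 WT, with a median of -0.06. GADD45A, a stress response gene, differed most, at 6.62 ± 0.32 in P68 KD and 6.87 ± 0.38 in P68 WT (SD, n = 3 each). By array number 1 of the 20 passed, where 0.749% of all genes did. At an unadjusted p under 0.05 there were 8 of the 20, against 11.6% of all genes, and array 1 lay beyond both others on the same side in both groups for 11 of the 20, against 29.1%. The 20 had no common direction by array number, with 11 above 0, 9 below 0 and a median of 0.045. GADD45A was at -0.575. DOCK5, an activator of the small GTPase Rac, was higher on the arrays numbered 1, at 4.67 against 4.10 on the others, a difference of 0.57 ± 0.11 (SE; adjusted p = 0.0482, limma). The call was lost without any 1 of the 6 arrays, with adjusted p-values of 0.0707 (without P68 KD replicate 2) to 0.465 (without P68 KD replicate 1), and with every probe set tested (0.0516). Of 12 measured TGF-beta targets, 0 passed in either comparison, with SKIL at -0.23 ± 0.13 (SE) for P68 KD minus P68 WT and ID1, an inhibitor of differentiation, at 0.32 ± 0.11 (SE) for arrays numbered 1 minus the others. Of 15 matrix proteases and inhibitors, 0 passed in either, with PLAU at 0.25 ± 0.11 (SE) for the knockdown and TIMP2 at 0.36 ± 0.12 (SE) for the array number.

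VIM, the intermediate filament protein of mesenchymal and glial cells, gave 7.94, 7.25 and 7.30 in P68 KD and 7.87, 7.62 and 7.60 in P68 WT (arrays 1, 2 and 3 of each). It was 0.46 ± 0.12 (SE; adjusted p = 0.134, limma) higher on the arrays numbered 1, on the same side as SPARC. VIM differed most of the 6 glioma markers by array number. Of these 6, 2 lay above 0 and 4 below, GFAP at -0.22 among the 4, with a median of -0.08. The mean of 6 fibroblast markers, 2 of which are collagens, was 3.94 to 4.14 in P68 KD and 3.90 to 3.97 in P68 WT. It was 3.94 and 3.95 on the arrays numbered 1, within the range of 3.90 to 4.14 on the others. Of these 6 markers, 4 were among the dimmest 40% of genes, LUM at 2.16 to 2.46 and DCN at 2.53 to 2.96 among them. The means of 6 endothelial markers were 4.76 and 4.73 on P68 KD and P68 WT arrays numbered 1, within 4.71 to 4.85 on the others. The labels name U-87 cells and no other cell type, so these markers do not show that other cells were present. A link of their signals to the SPARC values was not tested. CLDN5, an endothelial junction gene, averaged 5.94 ± 0.12 in P68 KD and 5.68 ± 0.04 in P68 WT (SD, n = 3 each; adjusted p = 0.902, limma). It differed most of the 6 endothelial markers by knockdown. Of these 6, 4 lay above 0 and 2 below, TIE1 at -0.20 among the 2. The groups did not overlap for 2 of these 6, where the same held for 10.1% of all genes. The mean of 5 oligodendrocyte markers was 4.95 to 5.05 in P68 KD and 4.85 to 4.91 in P68 WT, and that of 6 neuron markers was 4.62 to 4.71 in P68 KD and 4.50 to 4.59 in P68 WT. For such means no share over all genes was computed. As single genes, 1 of the 5 and 2 of the 6 had groups that did not overlap, where 10.1% of all genes did. Among the dimmest 40% of genes were 1 of the 5 and 3 of the 6, STMN2 included. CNP, a myelin enzyme, led the 5 oligodendrocyte markers at 0.38 ± 0.11 (SE), and STMN2, a tubulin-binding protein of neurons, led the 6 neuron markers at 0.32 ± 0.11 (SE), both for P68 KD minus P68 WT. Neither passed after adjustment (adjusted p = 0.902 each, limma).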

How the data were processed

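The deposited table of the authors holds log2 signals of 29096 probe sets on 6 arrays. The submitters' processing notes name RMA, and its software, version and filters are not given. By the annotation, 19460 probe sets had 1 gene symbol, 1754 had several and 7882 had none. A gene with several probe sets was represented by its brightest one on average, which left 18417 genes.

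The test of P68 KD against P68 WT covered all genes and used limma 3.58.1 in R 4.3.3 (lmFit and eBayes, two-sided, group as the only term). Arrays numbered 1 were set against the others by a second term beside group. An interaction term tested whether the number 1 difference differed between groups. P-values were adjusted over all genes by the Benjamini-Hochberg method. The fits were tested on simulated data. The members, gene lists and tests were chosen with earlier results of these data known. Named are the 10 members, DDX5, the 5 genes most like SPARC and, per list and comparison, up to 3 genes past the threshold or else the gene with the largest difference. ITGB1, GFAP and the other marker genes outside that rule were picked with their values in view. The deviations of same-numbered arrays from their group means correlated with r = 0.19, -0.04 and 0.10 for numbers 1, 2 and 3, so the numbers were not taken as pairs. The median standard error was 0.12 for the knockdown difference. Alternatives were other scalings, a filter on dim genes, other probe set rules, another variance model, array weights, other terms and leaving out arrays.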

Additional observations from a re-analysis of the deposited data

How the results depend on the processing

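No gene passed the threshold between P68 KD and P68 WT under any setting run, against 543 to 1374 genes at an unadjusted p under 0.05 in limma. With a replicate block that count of calls was 0, and the numbers do not pair the arrays. For arrays numbered 1 minus the others, 138 genes became 230 with the dimmest 40% of genes left out, 229 with an intensity trend and robust estimation, and 0 to 110 with single arrays left out, where fewer arrays enter the fit. Of the 10 genes, the values for P68 KD minus P68 WT changed sign in 15 of 167 combinations of a gene and a setting, and those by array number in 8 of 147. All changes of sign were in THBS2, CCN1, CCN2 and POSTN, whose differences in the comparison concerned ran up to 0.02 in size. THBS2 by knockdown was -0.010 with median centring, -0.0094 with repeated quantile normalisation, -0.015 with cyclic loess, -0.050 with array weights, -0.045 without both arrays numbered 1 (chosen after seeing the data) and -0.053 to 0.080 with single arrays left out. CCN1 by knockdown was -0.015 with array weights, -0.090 without both arrays numbered 1 and -0.135 to 0.135 with single arrays left out. CCN2 by knockdown was -0.0037 with array weights and -0.050 to 0.075 with single arrays left out. By array number CCN2 was 0.026 with array weights and -0.065 to 0.043 with single arrays left out, and POSTN was 0.005 with median centring and -0.099 to 0.073 with single arrays left out. SPARC by array number passed the threshold under 6 of 15 settings (adjusted p = 0.0281 to 0.0425, limma; values of 0.79 to 0.83), namely the 3 scalings, the filter on dim genes, the intensity trend and the array weights. The causes were not tested. Signal over background was not measured, so dim genes such as POSTN carry no evidence of a transcript.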
